A study of Homo sapiens with 6 samples.

Results

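The genes described here are 118 long non-coding genes that carry an antisense name, measured in NCI-H1299 cells with and without knockdown of FuHsi. A gene was taken if its symbol ends in AS and a number and if its row held at least 100 raw counts in each of the 6 libraries, and OIP5-AS1 and EPB41L4A-AS1 were left out. The table held 60617 genes, 1822 of them with an antisense name. Of these, 1327 had a count in at least 1 library, 120 reached the floor, and 118 remained. The members were thus chosen by their raw counts in all 6 libraries, and their being detected is no result. The floor applies to each library in both groups, so a gene that was below it in 1 group alone is not among them.

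The series asked what FuHsi does in the nucleolus, the compartment in which ribosomes are assembled. The control group held 3 libraries of wild-type NCI-H1299 cells, with Puro in their titles, and the other group held 3 libraries of the same line labelled as FuHsi knock-down, with Sh1 in their titles. Neither word is explained in the labels, no time after knockdown is given, and all knockdown titles carry the same Sh1. NCI-H1299 cells come from a human lung tumour and make no p53 protein, a background that all 6 libraries share. Nothing in the labels says that the replicates came from separate cultures, so p-values reflect the spread among these libraries alone, and that spread may be technical.

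Library totals ran from 24231515 to 34306849 counts, and each control library was deeper than each knockdown library. Library-scaled counts (CPM), on the log2 scale, correlated at 0.990 to 0.992 inside a group and at 0.963 to 0.969 across groups, so no library stood apart from its group. The level of FuHsi itself is not analysed here, so the labels were not checked against it. The labels call the cells lung adenocarcinoma. Of 5 markers of that tissue, SFTPC and SFTPA1 were at 0 in all libraries, and NKX2-1, NAPSA and SFTPB had at most 20 counts in any library. Scaled by library total alone, their summed level was 0.0874 to 0.423 CPM in control and 0.742 to 1.11 in knockdown. Of 5 epithelial markers, KRT8 and KRT18 were abundant, and EPCAM with 2 to 14 counts, CDH1 with 0 to 8 and KRT7 with 32 to 115 were low or nearly absent. On the same scale that list summed to 785 to 788 CPM in control and 653 to 696 in knockdown. All 3 mesenchymal markers were present, and they summed to 1366 to 1402 CPM in control and 987 to 1042 in knockdown. Within that list VIM went from 1270 to 1317 CPM down to 855 to 911, while FN1 went from 25.6 to 29.2 CPM up to 54.2 to 60.9 and CDH2 from 59.4 to 68.1 CPM to 67.5 to 70.9. Markers of blood and endothelial cells summed to 0.488 to 0.700 CPM in control and 1.22 to 1.65 in knockdown, and their part in the results was not tested.

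An antisense-named gene is a non-coding gene named after a protein-coding neighbour, its partner, that lies on the other strand. Some are transcribed away from a start region they share with the partner, some run into the partner's end, and some lie within it. Individual antisense RNAs are known to recruit chromatin regulators, to interfere with transcription of the partner, to pair with its RNA, or to act away from their own locus. Many others have no known role. Short-lived RNAs of this kind are removed in the nucleus by the RNA exosome and its adaptor complexes.

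In GENCODE v29 on GRCh38, 83 of the 118 were of the antisense type, 16 were processed transcripts, 14 were intergenic non-coding genes and 1 was a bidirectional-promoter RNA. The label of a long non-coding gene goes against that annotation for 4 members. TP73-AS1, EMC3-AS1 and SVIL-AS1 were annotated as transcribed pseudogenes, and KRT10-AS1 as protein-coding. By position, 59 members lay head to head with the partner, 31 tail to tail and 24 inside it or around it. Head to head means that the start ends overlap, by any length, or lie at most 1000 bases apart. Of the 58 such pairs with a tested partner, 42 had starts within 1000 bases of each other. FOXD2-AS1 and LYRM4-AS1 did not overlap the partner, FAM131B-AS2 lay on the partner's own strand, and HOXB-AS1 had no partner row. The medians over the members were 3523 exonic bases and 5 merged exons.

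Of the 118, 94 shared exonic bases with another gene and 24 shared none. The shared part was over 25% for 19 members, and reached 68.1% for PLBD1-AS1. The sources used here do not say whether reads were counted by strand. If they were not, reads from the overlap of a member and a gene on the other strand cannot be told apart.

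Mean levels of the members ran from 4.10 to 136 CPM with a median of 9.89, and 10 members held 31.0% of the summed CPM of all 118. These 10 were FGD5-AS1, NUTM2A-AS1, ZNF566-AS1, TP73-AS1, GABPB1-AS1, NOP14-AS1, OTUD6B-AS1, SLC9A3-AS1, PSMA3-AS1 and THAP9-AS1. Summed over all members, the level was 1593, 1628 and 1598 CPM in the control libraries. It was 1913, 1863 and 1840 CPM in the knockdown libraries, all above the controls. Without ZNF566-AS1 the sums were 1571 to 1605 CPM in control and 1752 to 1822 in knockdown. In bulk RNA, more cells with a transcript and more RNA per cell cannot be told apart.

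Among the 118, 47 genes rose in knockdown and 13 fell. The test was the quasi-likelihood test of edgeR, and genes were called where p, adjusted after Benjamini and Hochberg over all 17223 tested genes, was under 0.05. The other 58 did not pass. Of all tested genes, 30.7% were called higher and 30.9% lower, or 61.6% in either direction. Of the 11019 genes that reach the same floor, 33.2% were called higher and 43.1% lower, or 76.3% in either direction against 50.8% of the members. The median log2 fold change of the members was 0.13, against -0.06 for all genes at the floor and 0.03 for all tested genes. Scaled by library size alone, which raised the median of all genes by 0.15, 64 members were called higher and 7 lower. Rises then made up 90.1% of the called members, against 78.3% on the main scale. Among all called genes the share of rises likewise went from 49.9% to 64.4%. In that scaling and the 11 other alternatives to the fit, 42 of the 60 calls were kept in every one, 35 higher and 7 lower.

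In 45 members all knockdown libraries lay above all controls, and in 15 below. Among genes at the floor, 34.2% lay above and 44.1% below, and among all tested genes 33.0% and 32.3%, or 78.3% and 65.3% in either direction. Changes of at least 2-fold numbered 9 rises and 2 falls. Such rises made up 4.61% of genes at the floor and 9.16% of all tested genes, and such falls 2.72% and 3.12%.

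**Figure D1:**
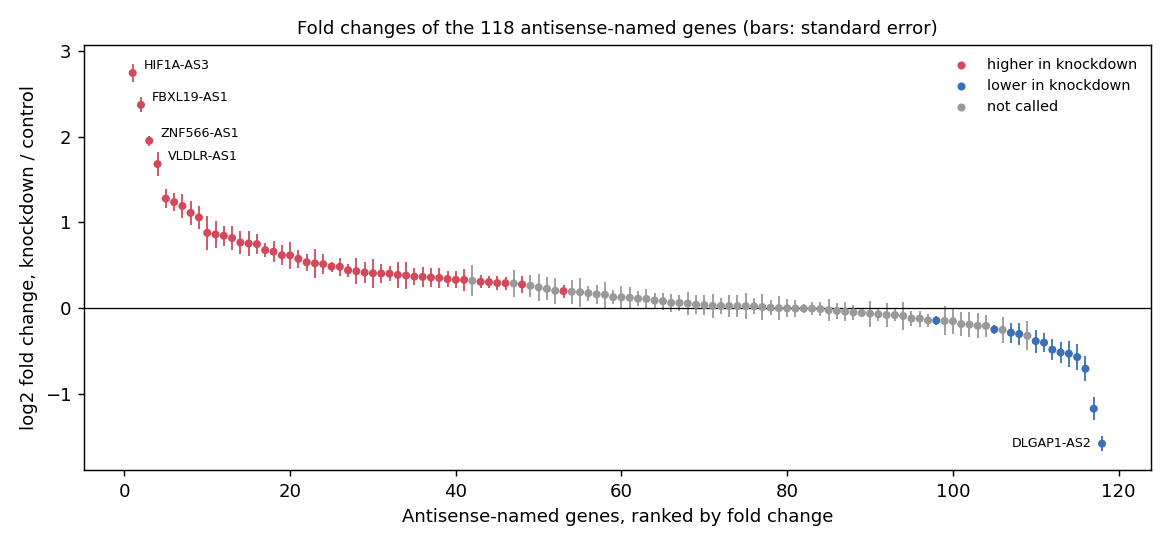
Log2 fold change, knockdown over control, of each of the 118 antisense-named genes, ranked from the largest rise to the largest fall, with bars of 1 standard error. The 47 genes called higher are in red, the 13 called lower in blue and the 58 not called in grey; HIF1A-AS3 stands highest at 2.74 and DLGAP1-AS2 lowest at -1.58.

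The shares differed with abundance. The members were split into 3 classes of like size by mean CPM and set beside other genes at the floor with a mean CPM in the same range. In the lowest class, 28.2% of members were called higher and 12.8% lower, against 34.5% and 15.5% of the other genes. In the middle class the shares were 48.7% and 12.8% against 43.3% and 23.4%. In the highest class they were 42.5% and 7.5% against 33.5% and 44.7%. The other genes in that range had a median level of 44.6 CPM against 21.7 for the members, so the ranges are alike and the levels within them are not.

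Other non-coding naming classes had medians above 0 as well. Of 43 divergent transcripts at the floor, whose symbols end in DT, 18 were called higher and 5 lower, with a median of 0.21. Of 67 LINC-named genes at the floor, 33 were called higher and 13 lower, with a median of 0.31. Of 460 tested antisense-named genes under the floor, 24.1% were called higher and 3.48% lower, with a median of 0.36. The 108 tested partners of the members had 38 higher and 43 lower, with a median of -0.01. No test set these classes against each other.

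The floor itself cuts through a continuous range. Just inside it lay DENND5B-AS1 with 100 to 139 counts, IQCH-AS1 with 102 to 188 and CARD8-AS1 with 103 to 243. Just outside lay RALY-AS1 with 98 to 131 counts and BAZ1A-AS1 with 93 to 109, and neither was called, at 0.11 and 0.10.

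HIF1A-AS3 (ENSG00000258667, GRCh38 chr14:61715558-61751097, minus strand) had the largest rise. GENCODE v29 lists the same identifier as HIF1A-AS2. It overlaps the end of HIF1A, the oxygen-regulated subunit of a transcription factor that drives the response to low oxygen, and shares no exonic bases with it. HIF1A-AS3 stood at 5.05, 4.19 and 3.91 CPM in the control libraries and at 27.9, 28.8 and 31.7 in the knockdown libraries. The groups were far apart. Its log2 fold change was 2.74 ± 0.10 (SE), and edgeR gave an adjusted p of 2.53e-31. HIF1A itself stood at 152 ± 1.22 CPM in control and 151 ± 4.59 in knockdown (SD, n = 3) and was not called. HIF1A was called with library size alone, at 0.14. The 250 bases before the RefSeq start of HIF1A-AS3 (GRCh38.p14 chr14:61751098-61751347, minus strand) are shown because no other member rose as far. Capitals would mark a match to 1 of the 6 motifs described further on, and it holds none.
HIF1A-AS3 upstream: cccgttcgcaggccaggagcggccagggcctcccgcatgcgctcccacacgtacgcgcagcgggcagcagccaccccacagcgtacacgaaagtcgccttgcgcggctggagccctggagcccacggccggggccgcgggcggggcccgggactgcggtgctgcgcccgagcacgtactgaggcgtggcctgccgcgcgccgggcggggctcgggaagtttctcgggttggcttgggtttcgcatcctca

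FBXL19-AS1 (ENSG00000260852, chr16:30919319-30923269, minus strand) is a single-exon gene that starts 214 bases from FBXL19, an F-box protein gene, on the other strand. It was measured at 7.28, 8.57 and 6.96 CPM in control and at 36.1, 41.4 and 40.7 CPM in knockdown. It rose by 2.37 ± 0.09 on the log2 scale, with an adjusted p of 1.01e-31 by edgeR. FBXL19 was at 56.6 ± 2.61 CPM in control and 56.5 ± 2.91 CPM in knockdown and was not called, although with library size alone it was, at 0.15. The pair shares 2.48% of the exonic bases of FBXL19-AS1.

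VLDLR-AS1 (ENSG00000236404, chr9:2421597-2643359, minus strand) runs across the start of VLDLR, a receptor for lipoproteins and for reelin. Its levels were 3.67, 3.45 and 3.63 CPM in control and 10.6, 11.0 and 12.9 CPM in knockdown, with no overlap. The log2 fold change was 1.68 ± 0.14. VLDLR fell by 0.27, from 32.2 ± 1.64 to 26.7 ± 1.35 CPM, a call lost with library size alone, at -0.12. The overlap is 12.3% of the exonic bases of VLDLR-AS1.

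NR2F2-AS1 (ENSG00000247809, chr15:96110040-96327361, minus strand) lies beside NR2F2, an orphan nuclear receptor also known as COUP-TFII. It was at 5.26, 6.69 and 3.95 CPM in control and 12.1, 10.3 and 10.8 in knockdown, and rose by 1.06 ± 0.14. NR2F2 fell by 0.41, from 110.1 ± 3.66 to 83.0 ± 2.03 CPM. ZFPM2-AS1 (ENSG00000251003, chromosome 8, minus strand) is named for a cofactor of GATA transcription factors. It rose by 1.24 ± 0.10, from 8.69 to 10.7 CPM in control to 20.5 to 26.9 CPM in knockdown, and ZFPM2 rose by 0.67. TSPEAR-AS2 rose by 1.11 ± 0.14, from 4.04 to 4.59 CPM to 8.99 to 10.0 CPM. TSPEAR, at 0.554 ± 0.186 CPM in control, rose by 1.82.

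**Figure D2:**
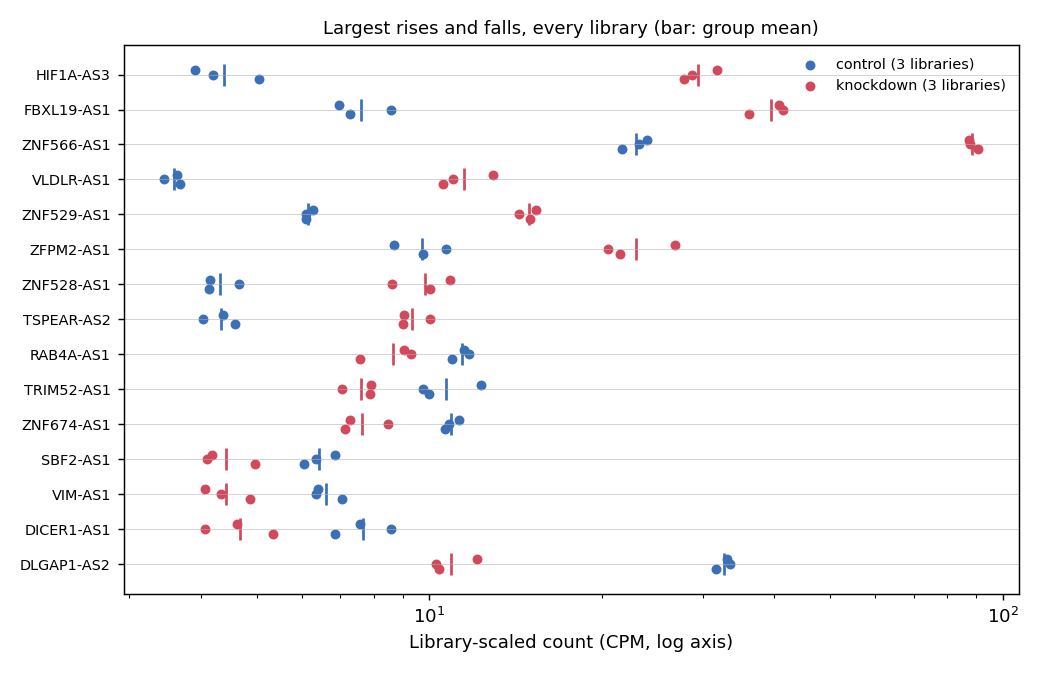
CPM in each of the 6 libraries of the called antisense-named genes with the 8 largest rises and 7 of the largest falls, on a log axis, with the group mean as a vertical bar. Each gene shown has its 3 control points (blue) and 3 knockdown points (red) apart, and ZNF566-AS1 goes from about 22.9 to 88.6 CPM.

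A further group of large rises were antisense neighbours of zinc finger genes. The KRAB zinc finger genes of chromosome 19 encode DNA-binding proteins that silence transposable elements. ZNF566-AS1 (ENSG00000267309, chr19:36489649-36491040, plus strand) stood at 21.7, 23.2 and 24.0 CPM in control and at 90.6, 87.9 and 87.3 CPM in knockdown. It rose by 1.95 ± 0.06, with an adjusted p of 3.71e-37 by edgeR. Per kb of exon it went from 16.5 to 63.7 CPM. ZNF566, which starts 253 bases away on the other strand, rose by 1.56, and 18.2% of the exonic bases of ZNF566-AS1 are shared with it. ZNF529-AS1 (chr19:36573070-36594708, plus strand) was at 6.09 to 6.27 CPM in control and 14.4 to 15.4 in knockdown, a rise of 1.28 ± 0.11, and ZNF529 rose by 1.15.

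ZNF528-AS1 (ENSG00000269834, chr19:52388842-52397766, minus strand) was at 4.13, 4.65 and 4.15 CPM in control and 10.0, 8.60 and 10.9 in knockdown. It rose by 1.19 ± 0.14, and ZNF528, which starts 91 bases beyond it in RefSeq on the other strand, rose by 0.94. They share no exonic bases. The stretch between the RefSeq starts with 20 bases beyond each (GRCh38.p14 chr19:52397737-52397869, minus strand) is shown because the pair rose together. Read from left to right, it begins at the start of ZNF528 and ends at that of ZNF528-AS1. Capitals mark 2 matches to the ETS motif CCGGAAG, both on the other strand.
ZNF528-AS1 to ZNF528: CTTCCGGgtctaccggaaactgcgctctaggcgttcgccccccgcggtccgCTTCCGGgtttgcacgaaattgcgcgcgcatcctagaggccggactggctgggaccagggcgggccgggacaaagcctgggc

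ZNF790-AS1 (chr19:36797518-36828115, plus strand) rose far less than its partner. It was at 17.4, 14.6 and 14.9 CPM in control and 21.3, 20.8 and 19.9 in knockdown, a log2 fold change of 0.40 ± 0.09. ZNF790 went from 7.31 ± 0.637 to 34.3 ± 2.29 CPM and rose by 2.23. Per kb of exon the member stood at 10.4 CPM and the partner at 1.9 in control, and at 13.7 and 8.91 in knockdown. Of the 9 members named for ZNF genes, 6 rose, 1 fell and 2 were not called, with a median of 0.40. Of the 8 members on chromosome 19, which include genes named for others such as CARD8-AS1 and TMEM147-AS1, 7 rose and none fell, with a median of 0.77. Of the 359 ZNF-named genes at the floor, 71.0% were called higher and 10.0% lower, and of all 796 chromosome 19 genes at the floor 43.3% and 39.4%.

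Between ZNF566-AS1 and ZNF790-AS1, a span of 338 kb (chr19:36489649-36828115) held 15 tested genes, and all 15 were called higher. Their log2 fold changes ran from 0.40 for ZNF790-AS1 to 1.95 for ZNF566-AS1, with a median of 1.18. ZNF260 had 1.80, ZNF461 1.85 and ZNF850 0.71. The span was chosen after these values were seen, and no test was made of it. Across the alternatives to the fit, leave-one-out fits included, 13 to 15 of the 15 were called higher. The pseudogene CTBP2P7 and the gene ENSG00000228629, both under 1 CPM, have the widest errors.

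**Figure D3:**
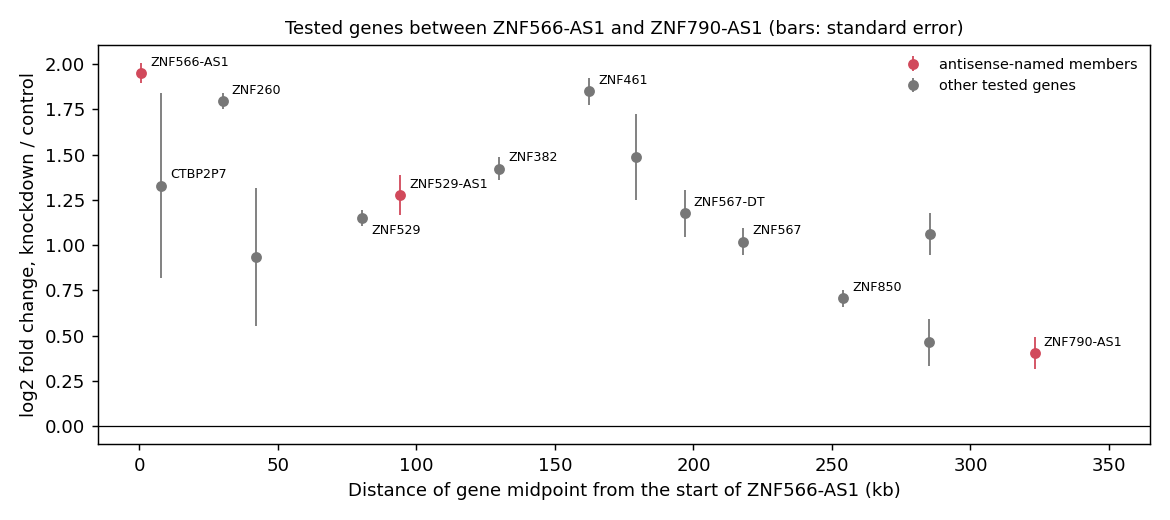
Log2 fold change with standard error of the 15 tested genes between ZNF566-AS1 and ZNF790-AS1 on chromosome 19, plotted by the distance of the gene's midpoint from the start of ZNF566-AS1 in kb. All lie above 0; the 3 antisense-named members, in red, run from 1.95 at the left to 0.40 at the right.

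The largest fall came from another locus. DLGAP1 encodes a scaffold protein of synapses and was all but silent here, with 0 to 10 counts in any library. DLGAP1-AS1 (ENSG00000177337, chr18:3593732-3598352) and DLGAP1-AS2 (ENSG00000262001, chr18:3603000-3608336) lie within it, both on the plus strand and 4647 bases apart, and share no exonic bases with any gene. DLGAP1-AS2 stood at 31.6, 33.5 and 33.0 CPM in control and at 10.4, 10.3 and 12.1 CPM in knockdown. It fell by 1.58 ± 0.08 on the log2 scale, with an adjusted p of 2.06e-24 by edgeR.

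DLGAP1-AS1 moved the other way, at 9.11, 8.81 and 6.85 CPM in control and 12.8, 14.2 and 14.8 CPM in knockdown. It rose by 0.75 ± 0.11, with an adjusted p of 6.51e-08 by edgeR, and was named after its values were seen. Per kb of exon, DLGAP1-AS2 was at 10.3 CPM and DLGAP1-AS1 at 3.92 in control, and in knockdown they were at 3.45 and 6.61, in the reverse order. The CPM ratio of AS2 to AS1 went from 3.96 to 0.786. The log2 ratio differed by -2.35. The pair was chosen for this difference. An exact two-sided permutation test of it gave a p of 0.1. That is the smallest p this test can give with these libraries, so it decides nothing.

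The 250 bases before the RefSeq starts of the pair are shown because such close neighbours moved in opposite directions (GRCh38.p14 chr18:3593864-3594113 and chr18:3603487-3603736, plus strand). RefSeq places both starts inside the GENCODE v29 genes. Capitals mark an E-box, CACGTG, and a match to the composite site bound by ATF4, a factor of the amino acid response. Both stand before DLGAP1-AS2, and neither of these nor any of the other 4 motifs is found before DLGAP1-AS1.
DLGAP1-AS1 upstream: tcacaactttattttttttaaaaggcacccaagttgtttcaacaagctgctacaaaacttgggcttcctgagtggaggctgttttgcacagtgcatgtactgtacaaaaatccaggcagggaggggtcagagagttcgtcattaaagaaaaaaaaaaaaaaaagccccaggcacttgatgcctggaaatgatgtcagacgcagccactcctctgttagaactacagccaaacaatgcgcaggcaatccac
DLGAP1-AS2 upstream: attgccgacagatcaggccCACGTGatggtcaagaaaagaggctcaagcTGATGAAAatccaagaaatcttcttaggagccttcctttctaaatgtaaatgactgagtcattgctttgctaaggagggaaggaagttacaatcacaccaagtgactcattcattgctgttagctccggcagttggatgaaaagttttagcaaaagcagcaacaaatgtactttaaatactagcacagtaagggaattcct

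DICER1-AS1, beside the gene for the enzyme that cuts microRNA precursors, was at 6.85 to 8.57 CPM in control and 4.06 to 5.34 in knockdown and fell by 0.71 ± 0.15. DICER1 fell by 0.17, and with library size alone was not called, at -0.02.

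VIM-AS1 stood at 7.03, 6.35 and 6.40 CPM in control and 4.87, 4.34 and 4.07 CPM in knockdown, and fell by 0.57 ± 0.15. Of its exonic bases, 32.2% are shared with the start of VIM, the gene of the intermediate filament vimentin. VIM went from 1366 ± 31.6 to 839 ± 29.5 CPM, a fall of 0.70, and its part in the count of VIM-AS1 was not tested. SBF2-AS1 fell by 0.53 ± 0.15, from 6.06 to 6.85 CPM down to 4.10 to 4.97 CPM. It shares 32.2% of its exonic bases with SBF2, which was at 33.3 ± 0.546 and 34.3 ± 0.412 CPM and was not called, except with library size alone, at 0.19.

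RAB4A-AS1 fell by 0.40 ± 0.11, from 11.0 to 11.7 CPM in control to 7.57 to 9.31 in knockdown. RAB4A, a small GTPase of recycling endosomes, fell by 0.52, and the pair shares no exonic bases. RAB4A-AS1 did not pass with library size alone, at -0.25.

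Several of the most abundant members changed little. FGD5-AS1 (ENSG00000225733, chr3:14920347-14948424, minus strand) was at 132, 144 and 140.0 CPM in control and 139, 137 and 123 CPM in knockdown, and the groups overlapped. Its log2 fold change was -0.06 ± 0.04 with an adjusted p of 0.241 by edgeR, and with library size alone it turned to 0.10. FGD5, a gene known from endothelial cells, had at most 2 counts in any library, against 3151 to 4664 for FGD5-AS1. GABPB1-AS1 was at 52.1 ± 3.65 and 51.8 ± 1.78 CPM, a log2 fold change of -0.01 ± 0.06. It was called with library size alone, at 0.15. OTUD6B-AS1 was at 35.6 ± 0.764 and 33.5 ± 2.58 CPM, a log2 fold change of -0.08 ± 0.07.

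NUTM2A-AS1 was at 73.1, 74.6 and 78.2 CPM in control and 63.9, 72.5 and 67.8 in knockdown. The groups were apart by a narrow margin, and the log2 fold change of -0.15 ± 0.05 passed the test. It did not pass without control replicate 3, at -0.13, without knockdown replicate 1, at -0.11, or with upper-quartile factors, at -0.09, and it turned to 0.01 with library size alone. TP73-AS1 fell by 0.25 ± 0.05, from 60.4 ± 2.12 to 50.7 ± 1.51 CPM. It shares 6.53% of its exonic bases with TP73, a relative of p53, which fell by 0.98 from 5.02 ± 0.903 to 2.55 ± 0.370 CPM. TP73-AS1 was not called with library size alone, at -0.10.

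SLC9A3-AS1 was at 34.6, 27.3 and 24.3 CPM in control and 36.3, 36.1 and 36.7 in knockdown, and rose by 0.34 ± 0.09. Control replicate 1 lay close to the knockdown libraries. THAP9-AS1, beside a gene derived from a transposase, rose by 0.29 ± 0.08, from 22.2 to 24.9 CPM to 26.0 to 31.5 CPM. At the floor, CARD8-AS1 rose by 0.86 ± 0.16, while CARD8, an inflammasome sensor, was not called at -0.08. DENND5B-AS1, at 0.32 ± 0.18, and IQCH-AS1, at -0.32 ± 0.17, did not pass. DENND5B-AS1 passed without knockdown replicate 1, at 0.44, and with library size alone, at 0.47, and IQCH-AS1 passed without control replicate 1, at -0.47.

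Each member was then set against its partner. Partners of 108 members were tested. The other 9 with a partner row, among them FGD5-AS1 and both DLGAP1 members, had partners with at most 15 counts in any library. Per kb of exon, the partner's control level was above the member's in 75 of 108 pairs, with a median ratio of 1.90. Across the 108 pairs the log2 fold changes of member and partner had a Pearson r of 0.25 and a Spearman rho of 0.22. For the 96 pairs whose partner also reached the floor they were 0.19 and 0.12. By position, r was 0.23 head to head, 0.15 tail to tail and 0.64 inside. For the 17 head-to-head pairs without shared exonic bases it was -0.05. These values describe genes of the same 6 libraries, which are not independent replicates, and 81 of the 118 members share exonic bases with the partner.

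Member and partner were called in the same direction in 23 pairs, with 16 both higher and 7 both lower, and in opposite directions in 19. In 17 of these 19 the member was higher and the partner lower. The 2 reverse cases were TRIM52-AS1 and ZNF674-AS1. Over all 118 members 47 were called higher and 13 lower, and over the 108 tested partners 38 higher and 43 lower. Those totals alone make the first kind of opposite pair more frequent than the reverse. With library size alone 30 pairs went the same way and 20 opposite ways, and across the other alternatives 18 to 23 and 14 to 20. The counts differed by position, and that difference was not tested. Of 58 head-to-head pairs 12 went the same way and 12 opposite ways. Of 28 tail-to-tail pairs 7 and 6 did, and of 20 pairs with 1 gene inside the other 4 and 0.

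The ratio of member to partner was tested with limma on the difference of their log2 CPM. It was called higher in knockdown for 21 of the 108 members and lower for 8, with p adjusted over 527 pairs. Among those 527 pairs of any antisense-named gene with its partner, 14.2% were called higher and 6.07% lower, or 20.3% in all. These counts are fragile. Leaving out 1 library gave 4 to 13 higher and 2 to 4 lower. The lowest counts were 4 and 2 without knockdown replicate 1, and the others were 8 and 3 without control replicate 1, 13 and 4 without control replicate 2, 7 and 3 without control replicate 3, 10 and 4 without knockdown replicate 2, and 6 and 2 without knockdown replicate 3. Allowing the spread to depend on abundance gave 34 and 15.

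In all of the 11 fits not limited to pairs without shared bases, 6 ratio calls were kept, those of HIF1A-AS3, FBXL19-AS1, VLDLR-AS1, MRPL20-AS1, ZNF790-AS1 and MAGI2-AS3. The log2 ratio rose by 2.75 ± 0.19 for HIF1A-AS3, by 2.37 ± 0.20 for FBXL19-AS1 and by 1.93 ± 0.18 for VLDLR-AS1. For NR2F2-AS1 it rose by 1.49 ± 0.25, a call made in 9 of the 11. All 4 members rose, and their partners were lower or not called.

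**Figure D4:**
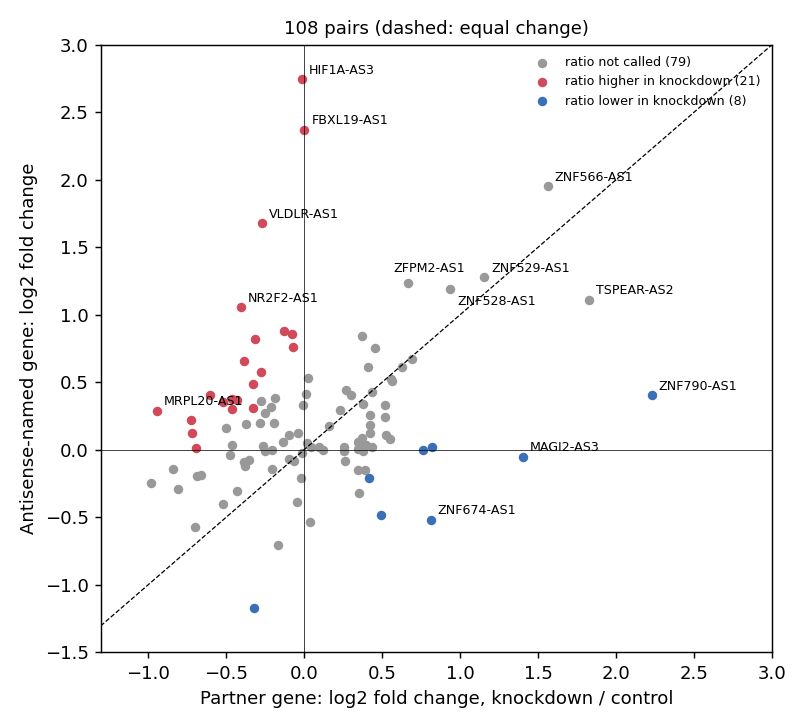
Log2 fold change of each antisense-named gene against that of its partner for the 108 tested pairs, with the dashed line where both are equal. Red marks the 21 ratios called higher in knockdown and blue the 8 called lower; HIF1A-AS3, FBXL19-AS1 and VLDLR-AS1 stand far above the line, and ZNF790-AS1 and MAGI2-AS3 below it.

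MRPL20-AS1 (chr1:1399522-1402046, plus strand) faces the end of MRPL20, which encodes a protein of the mitochondrial large ribosomal subunit. The member rose by 0.29 ± 0.08, from 23.2 ± 0.605 to 28.3 ± 2.38 CPM. MRPL20 fell by 0.95, from 91.6, 95.9 and 97.4 CPM to 51.2, 47.2 and 49.3 CPM. The log2 ratio rose by 1.23 ± 0.18, and the partner's fall was the larger of the 2 changes.

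MAGI2-AS3 (chr7:79452877-79471208, plus strand) was at 16.9, 18.2 and 16.8 CPM in control and 15.2, 16.3 and 18.6 in knockdown, and was not called at -0.05. MAGI2, a scaffold protein of cell junctions, rose by 1.40 from 4.19 ± 0.635 to 11.0 ± 0.608 CPM. The log2 ratio fell by 1.45 ± 0.21. For ZNF790-AS1 it fell by 1.82 ± 0.18.

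Of the members beside genes for nucleolar proteins, NOP14-AS1 was named by its level, and NIFK-AS1 and URB1-AS1 were picked after their values were seen, from no fixed list. That all 3 partners were lower is therefore no result. NOP14 encodes a factor of the small-subunit processome. NOP14-AS1 rose by 0.48 ± 0.06, from 38.7, 36.8 and 37.9 CPM to 55.5, 50.2 and 52.6 CPM, and NOP14 fell by 0.33, from 154 ± 3.45 to 123 ± 5.30 CPM. NIFK-AS1, beside the gene of a nucleolar protein that binds Ki-67, was at 4.74 to 5.70 CPM in control and 5.21 to 8.52 in knockdown, with overlap. Its rise of 0.38 ± 0.15 did not hold without control replicate 1, at 0.31, without control replicate 3, at 0.37, or without knockdown replicate 1, at 0.16, nor with DESeq2, at 0.35. NIFK fell by 0.46. URB1-AS1 was not called, at 0.04 ± 0.11, and URB1, a nucleolar protein of large-subunit assembly, fell by 0.46. TMPO-AS1, likewise picked after its values were seen and named for a protein of the nuclear lamina, was not called at 0.22 ± 0.13 and passed with library size alone at 0.38, while TMPO fell by 0.72.

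PSMA3-AS1 stands beside PSMA3, a subunit of the proteasome core. It rose by 0.30 ± 0.07, from 26.5, 27.9 and 25.3 CPM to 33.1, 32.5 and 32.6, and PSMA3 fell by 0.46, from 114 ± 5.03 to 82.8 ± 2.89 CPM. CDKN2B-AS1, also known as ANRIL, lies across CDKN2B, the gene of a cell cycle inhibitor. It was at 12.6 ± 0.717 and 12.5 ± 1.68 CPM and was not called, while CDKN2B rose by 0.76 from 38.5 ± 2.02 to 65.3 ± 1.28 CPM. CDKN2B-AS1 was named after its values were seen.

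TRIM52-AS1 (ENSG00000248275, chr5:181261212-181272307, plus strand) starts 68 bases from TRIM52, a gene of the tripartite motif family, in RefSeq, and they face away from each other. It was at 10.0, 9.77 and 12.3 CPM in control and 7.88, 7.06 and 7.91 in knockdown, and fell by 0.49 ± 0.12. TRIM52 was at 17.4, 18.3 and 15.1 CPM in control and 24.5, 24.2 and 22.6 CPM in knockdown, and rose by 0.49. Both pairs of groups were apart, in opposite directions. The log2 ratio fell by 0.98 ± 0.22, a call made in only 5 of the 11 fits. TRIM52-AS1 shares no exonic bases with TRIM52, but 28.0% of them with CTC-338M12.4 on its own strand, which had a log2 fold change of 0.73.

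ZNF674-AS1 (ENSG00000230844, chrX:46545493-46548408, plus strand) also starts 68 bases from its partner in RefSeq and shares no exonic bases with any gene. It was at 10.6, 10.8 and 11.3 CPM in control and 7.13, 8.48 and 7.28 CPM in knockdown, and fell by 0.52 ± 0.12. ZNF674 was at 3.91, 4.99 and 5.19 CPM in control and 8.79, 6.78 and 9.08 CPM in knockdown, and rose by 0.81. The groups were apart for both genes. Per kb of exon the member stood at 5.26 and the partner at 0.758 CPM in control, and at 3.67 and 1.32 in knockdown. The log2 ratio fell by 1.31 ± 0.24, a call made in 8 of the 11 fits.

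SAP30L-AS1 and SCAMP1-AS1 give the other opposite case, the member higher and the partner lower, in head-to-head pairs with no shared exonic bases. They were named after their values were seen. SAP30L-AS1, beside a subunit gene of the Sin3 histone deacetylase complex, was at 5.05, 5.02 and 4.43 CPM in control and 9.81, 7.14 and 8.57 in knockdown. It rose by 0.82 ± 0.14, and SAP30L fell by 0.32, a call lost with library size alone at -0.16. SCAMP1-AS1, beside a gene for a carrier membrane protein of secretion, was at 10.2, 12.3 and 11.7 CPM in control and 18.5, 13.4 and 18.9 in knockdown. It rose by 0.57 ± 0.11, and SCAMP1 fell by 0.27 from 71.2 ± 2.69 to 58.8 ± 1.25 CPM.

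The sequences between the RefSeq starts of these 4 pairs are shown with 20 bases beyond each start, because each pair moved in opposite directions across so short a stretch. They are on the member's strand in GRCh38.p14, at chr5:181261123-181261232 (plus), chrX:46545401-46545510 (plus), chr5:154445802-154446017 (minus) and chr5:78360521-78360637 (minus). Read from left to right, each stretch begins at the partner's start and ends at the member's start. Capitals mark matches to NF-Y's CCAAT on the other strand, found 2 times between SAP30L-AS1 and SAP30L. The other 3 stretches hold none of the 6 motifs. Their GC content was 68.2%, 61.8%, 67.1% and 77.8%.
TRIM52-AS1 to TRIM52: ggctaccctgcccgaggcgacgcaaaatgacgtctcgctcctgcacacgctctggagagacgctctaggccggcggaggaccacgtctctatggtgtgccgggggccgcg
ZNF674-AS1 to ZNF674: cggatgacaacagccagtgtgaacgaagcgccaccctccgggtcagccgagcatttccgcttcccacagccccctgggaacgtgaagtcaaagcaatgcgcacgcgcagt
SAP30L-AS1 to SAP30L: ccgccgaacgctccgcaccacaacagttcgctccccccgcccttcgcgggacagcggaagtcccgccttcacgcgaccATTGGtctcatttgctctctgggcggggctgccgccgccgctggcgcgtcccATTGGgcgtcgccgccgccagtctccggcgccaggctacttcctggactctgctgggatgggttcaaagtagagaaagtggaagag
SCAMP1-AS1 to SCAMP1: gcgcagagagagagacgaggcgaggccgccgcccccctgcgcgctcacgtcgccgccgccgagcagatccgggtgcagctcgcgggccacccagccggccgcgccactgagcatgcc

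**Figure D5:**
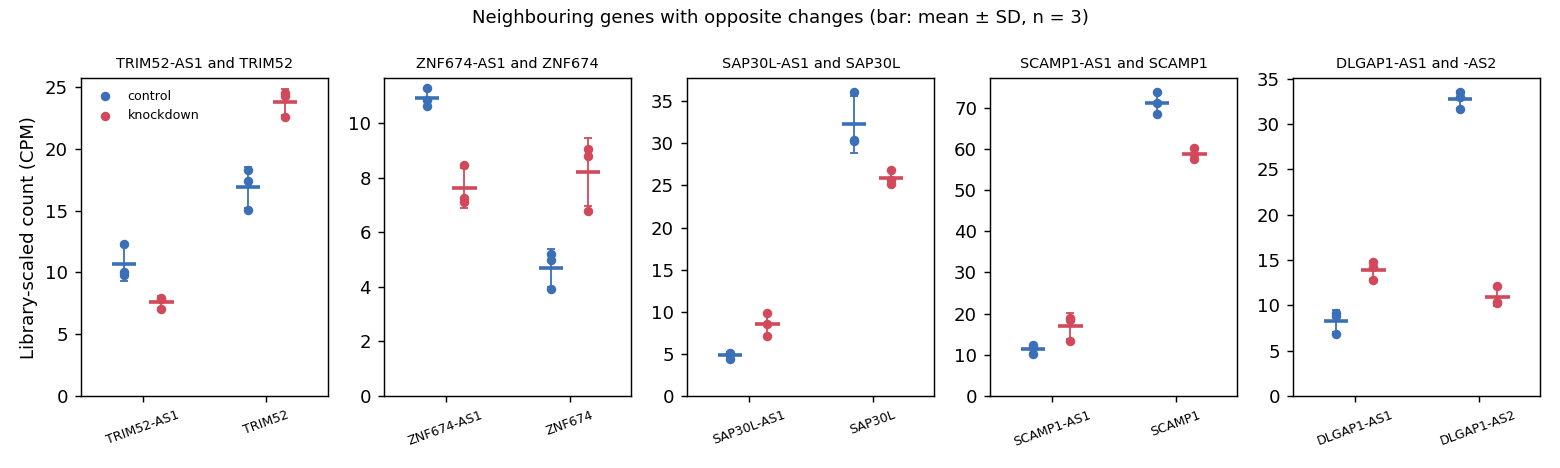
CPM per library, with mean and SD of 3 libraries, of the pairs TRIM52-AS1 and TRIM52, ZNF674-AS1 and ZNF674, SAP30L-AS1 and SAP30L, SCAMP1-AS1 and SCAMP1, and of DLGAP1-AS1 and DLGAP1-AS2. In each panel 1 gene is higher in knockdown (red) than in control (blue) and its neighbour is lower.

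Promoter windows of RefSeq on GRCh38.p14, 250 bases before to 50 after a start, were found for 99 of the 118 members, 125 windows in all out of 35116. Both strands were searched for 6 motifs. The ETS motif CCGGAAG was in 19.2% of the members' windows and in 10.3% of all windows. CCAAT was in 30.4% against 34.6%, the E-box CACGTG in 8.0% against 7.26%, and TATAAA in 4.0% against 11.5%. The interferon-stimulated response element, searched as GAAA, 2 bases of any kind and GAAA, was in 1.6% against 3.57%. The ATF4 composite site, searched as TGATG, any base and AA, was in 1.6% against 3.62%. Of the 48 windows of members that rose, 11 held ETS, 19 CCAAT, 5 the E-box and 2 TATAAA, and 0 held the other motifs. Of the 65 windows of members not called, 12, 16, 3 and 3 held these 4 motifs. Of the 12 windows of members that fell, 1, 3, 2 and 0 did. The difference between these groups was not tested. No motif is contained in another. A match is a description of letters and not a bound site.

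Genes for proteins that act on short-lived nuclear RNA were read from the same fit. The list held 34 genes, for some exosome subunits, adaptors and cofactors, cap-binding proteins, XRN2, CPSF3, and subunits of the Integrator and restrictor complexes. Of these, 8 rose, 17 fell and 9 were not called, with a median of -0.13. These shares, 23.5% higher and 50% lower, stand beside 33.2% and 43.1% of genes at the floor, or 73.5% called against 76.3%. INTS14, a subunit of the Integrator, which ends short transcripts early, fell by 1.01 ± 0.06, from 72.5 ± 3.01 to 36.1 ± 2.27 CPM. MPHOSPH6, a nuclear exosome cofactor, fell by 0.67 ± 0.06. RBM7, the RNA-binding subunit of the nuclear exosome targeting complex, rose by 0.97 ± 0.07, from 19.5 ± 0.341 to 38.5 ± 3.01 CPM, and INTS6 rose by 0.75 ± 0.06. The part of these genes in the levels of the antisense-named RNAs was not tested.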

How the data were processed

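The authors deposited 1 table of raw read counts per Ensembl gene for 6 libraries. Tools listed in the submitters' processing notes are featureCounts 2.0.1, STAR 2.7.0d, DESeq2 1.30.1 and Trim Galore 0.6.6, with the build hg38. For the annotation release, the strand setting and reads with several alignments, the choice is not given in the sources used here. Symbols came from a gene name table, and positions, types and exons from GENCODE v29 on GRCh38. The set of members depends on that name table. In GENCODE v29, 92 of the 118 members had a name ending in AS and a number. A further 12 genes at the floor had such a name only there and are not members. The partner is the gene whose symbol remains once AS and its number are removed.

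The filter was filterByExpr (minimum count 10) and the scaling TMM, in edgeR 4.0.16 under R 4.3.3. Knockdown was compared with control by the quasi-likelihood test, with Benjamini-Hochberg adjustment over 17223 genes and calls at an adjusted p under 0.05. A positive log2 fold change means higher in knockdown. Its standard error (SE) was derived from the test statistic. CPM are TMM-scaled, except those of the cell type markers, which use library totals alone, and are given as mean ± SD of 3 libraries, and log2 CPM used a prior count of 2. The member-to-partner ratio was fitted with limma 3.58.1 (robust) over 527 pairs. Library totals of 24231515 to 34306849 counts and a common biological coefficient of variation of 4.67% set the precision.

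Alternatives were other scalings (RLE, upper quartile, library size alone), no filter, a replicate block, DESeq2 1.42.0, each library left out, floors of 50 and 200 counts, members sharing no exonic bases and, for ratios, a prior count of 0.5, a trended limma fit and pairs sharing no exonic bases. The members, lists, tests and alternatives were chosen with earlier results of these data known. Genes were named by rule: the 10 highest levels, the 8 largest called rises and falls, the 5 highest and 5 lowest called ratios, the 3 not called with the smallest SE, the 3 nearest the floor on each side, and partners. A few items that the rule would name are not reported here. A few more were named after their values were seen, as the text says. Both fits were tested on simulated data. Of genes given a log2 fold change of 1 in either direction, the gene test called 77 of 99. At 0.5 it called 67 of 100, and without a change 12 of 16660. The ratio test called 68 of 119 pairs at 1 and 5 of 380 without a change. The genes and pairs given a change were drawn from all those kept by the filter, including genes under the floor of 100 counts. The shares called are thus not those of the members. A gene or ratio that is not called may still differ, by an amount that depends on its SE.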

Additional observations from a re-analysis of the deposited data

How the results depend on the processing

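With library size alone, the members called lower numbered 7 and the median log2 fold change of the members was 0.279. With upper-quartile factors the median was 0.186. A floor of 50 counts gave 191 genes with 72 called higher. A floor of 200 counts gave 63 genes with 28 higher and 5 lower. The 24 members sharing no exonic bases gave 10 higher and 3 lower, fewer because fewer were counted. Leaving out 1 library gave 41 to 45 higher, 11 to 12 lower and a median of 0.111 to 0.149. RLE size factors, no filter and DESeq2 kept the counts within 1.5 times, with DESeq2 at 39 and 11.

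The ratio to the partner moved most. Leaving out 1 library gave 4 to 13 higher and 2 to 4 lower, the trended limma fit 34 and 15, and the 30 pairs sharing no exonic bases 7 and 3. A prior count of 0.5 gave 18 and 6, and library size alone 21 and 8. The cause was not tested, beyond the smaller number of samples or pairs where some were left out.

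Replicate numbers did not pair the samples, with correlations of same-numbered deviations of -0.000751, -0.00642 and -0.0235. With a replicate block 47 members were called higher and 13 lower, and their median was 0.124. Under that block the ratio was called higher for 5 and lower for 2.

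With library size alone FGD5-AS1 was at 0.0960 and was called, GABPB1-AS1 at 0.147 and was called, and NUTM2A-AS1 at 0.00706 and was not; their sign turned. Depth limits the members near 100 counts, where the SE of a log2 fold change was up to 0.18 among those named.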
